A study of Mus musculus with 36 samples.

Results

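The acrosome and egg fusion genes described here are 10 mouse genes chosen by function and by name: Acr, Acrbp, Acrv1, Spaca1, Zpbp, Zpbp2, Spesp1, Spaca6, Tmem95 and Izumo1. Their symbols were matched to Ensembl identifiers, and all 10 were found in the round spermatid table, which holds 51912 genes, and in the sperm table, which holds 54838. The study fed C57BL/6 wildtype males (C57BL/6N in its methods) for 2 weeks, from 6 weeks of age, on a high-fat diet (HFD, 60% of kcal from fat) or a low-fat diet (LFD, 10%). The libraries used are 3 of cauda spermatozoa per diet, 6 of round spermatids isolated on a density gradient from the testes of mice of both diets at 8 weeks, and 6 of morulae grown for 72 hours after fertilization in vitro of oocytes from unexposed females with sperm of both diets. Liver, epididymal white adipose tissue (eWAT) and gastrocnemius muscle gave 6 libraries each. They came from chow-fed male offspring of HFD-fed fathers, tolerant or intolerant of glucose, whose age at sampling is not given in the sources used here. Diet was compared only in sperm, since the columns of the round spermatid and offspring tables carry no diet or tolerance label, and the morulae served as background. Nothing in the labels says that the 3 sperm libraries of a diet came from single mice, so their p-values measure the spread between libraries only.

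The acrosome is a secretory vesicle that forms over the nucleus of the round spermatid and stays on the sperm head until fertilization. Its contents and membranes help the sperm to pass the zona pellucida, the coat of the egg, and its release exposes the membrane proteins that bind and fuse with the egg. These genes are known as genes of the haploid germ line: their messages are made in spermatids, and the proteins are stored while the nucleus is compacted and transcription stops. The 10 genes fall into 3 roles. Acr, Acrbp, Acrv1, Zpbp and Zpbp2 encode proteins of the acrosomal contents, Spaca1 and Spesp1 encode proteins of the acrosomal membrane and the equatorial segment, and Izumo1, Spaca6 and Tmem95 encode sperm membrane proteins needed for fusion with the egg.

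Stretches of promoter are shown as a description, since CREM, a transcription factor of spermatids, is known to bind cyclic AMP response elements. Both strands of the 250 bases before the RefSeq start site (GRCm38.p6) were searched for the letters TGACG, the core of that element, and for its full form TGACGTCA, which contains the core on both strands. Promoters were on file for 9 of the 10 genes, all but Acr. The core lay in 5 of the 9, against 19.8% of the 27025 genes with a promoter on file, and in 4 of the 35 genes of a wider acrosome and fertilization list that had one. These are the stretches around each match, 5′ to 3′ on the strand of the gene, with the match in capitals:
Acrbp, chr6:125049884-125049926, plus strand: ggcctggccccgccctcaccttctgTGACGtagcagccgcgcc
Spaca1, chr4:34050095-34050159, minus strand: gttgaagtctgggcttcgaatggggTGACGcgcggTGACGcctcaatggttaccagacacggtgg
Zpbp2, chr11:98550925-98550979, plus strand: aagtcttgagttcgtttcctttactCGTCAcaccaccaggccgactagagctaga
Izumo1, chr7:45621690-45621747, plus strand: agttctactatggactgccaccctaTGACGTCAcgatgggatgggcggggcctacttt
Tmem95, chr11:69878234-69878288, minus strand: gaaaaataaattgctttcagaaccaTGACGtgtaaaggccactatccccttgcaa
Izumo1 held the full form, found in 1.55% of the 32851 promoter windows on file, with its first base 96 bases before the start site. In Acrbp the core began 18 bases before the start, in Spaca1 it occurred at 69 and at 59 bases, in Zpbp2 on the other strand at 147 and in Tmem95 at 208. The stretches of Acrbp and Spaca1 lie inside the spans of the gene models counted here. Those models begin upstream of the RefSeq start, at 125049689 for Acrbp (plus strand) and 34050191 for Spaca1 (minus strand). The windows of Acrv1, Zpbp, Spaca6 and Spesp1 held neither form. A match describes the letters of the window only, and binding was not measured here.

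Library sizes and contents set the precision of what follows. Round spermatid libraries held 20138842 to 31056066 counts, of which 1.96 to 2.38% came from mtDNA-encoded genes, whereas the sperm libraries held 2560219 to 4062321, of which 43.5 to 84.3% were mtDNA-encoded. A count of 0 in a sperm library allows up to 3 counts, or 0.738 to 1.17 CPM (counts scaled to the same total in every library), for counting error only. The other tables held 11471251 to 12153141 counts per library in morula, 2036237 to 2552454 in liver, 1338149 to 4055537 in eWAT and 369772 to 2749920 in gastrocnemius. The labels matched their markers: the 7 spermatid markers (Prm1, Prm2, Prm3, Tnp1, Tnp2, Odf1 and Akap4) summed to 8490 to 11011 CPM in round spermatids and 2684 to 5594 CPM in sperm, and the liver, fat, muscle and morula lists were highest in their own tissue. The 7 spermatocyte markers were all counted in round spermatids, at a summed 530 to 678 CPM. Germ cell and morula libraries cover whole transcripts, while those of the offspring tissues hold 3′ ends only, so levels per length (FPKM, CPM divided by the exonic length in kilobases) are given for germ cells and morulae alone.

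In round spermatids all 10 genes were counted in each of the 6 libraries, and together they took 1971 to 2146 CPM (median 2037). Zpbp2 was the most abundant per length, on chr11:98551097-98558665, with 165 FPKM in the lowest library, a median of 173 and 189.4 in the highest. It encodes a zona pellucida binding protein of the acrosomal matrix, and by median FPKM it was number 277 among the 41316 genes with a count. Acr (chr15:89568326-89574585), the gene of the serine protease acrosin, followed with 147, 154 and 162 FPKM for its lowest, median and highest library. The ranges of these leading genes did not overlap each other or those of the next members, so their order was the same in every library.

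Spesp1 (chr9:62270729-62282208), which encodes a protein of the equatorial segment where fusion starts, lay at 111 to 121 FPKM with a median of 118. Spaca1 (chr4:34024874-34050191), whose inner acrosomal membrane protein is needed to shape the acrosome, ranged from 104 to 130 FPKM with a median of 116. The ranges of this pair overlapped, and their order was not settled by the 6 libraries. Acrbp (chr6:125049689-125063267), which binds the precursor of acrosin, lay below both at 88.0 to 95.5 FPKM (median 90.9).

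A middle pair was formed by Acrv1 (chr9:36693220-36698843), a protein of the acrosomal matrix, at 59.2 to 69.3 FPKM (median 66.4), and Zpbp (chr11:11279626-11462408), the paralog of Zpbp2, at 53.7 to 63.9 FPKM (median 58.4). Their ranges overlapped. The 3 fusion genes came last. Izumo1 (chr7:45621811-45628823), the sperm ligand of the egg receptor Izumo1r, ranged from 30.9 to 38.6 FPKM (median 34.6) and overlapped Tmem95 (chr11:69876684-69878018), at 24.6 to 31.2 FPKM (median 26.6). Spaca6 (chr17:17830719-17843009 in the round spermatid table) was the lowest at 9.30 to 10.8 FPKM (median 10.3), number 5136 among the counted genes.

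**Figure D1:**
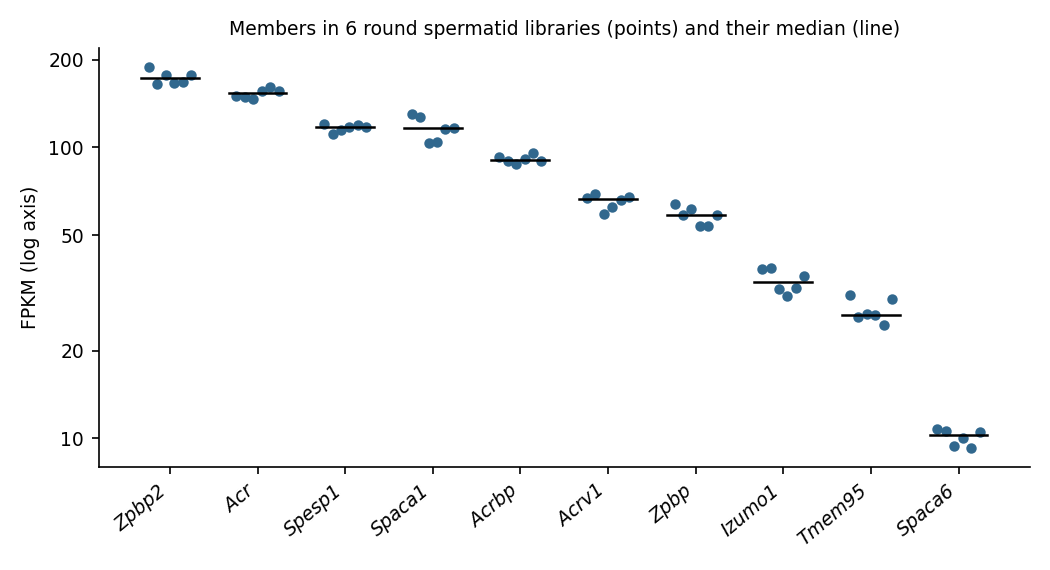
FPKM of each gene (log axis) in the 6 round spermatid libraries, with 1 point per library and a line at the median, ordered by the median. The ranges separate at most steps and overlap for Spesp1 with Spaca1, Acrv1 with Zpbp and Izumo1 with Tmem95.

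Ordered by CPM, with no division by length, Spesp1 (338 to 367 CPM), Acrbp (288 to 313) and Zpbp2 (278 to 319) came first and Tmem95 last, at 13.1 to 16.6 CPM. Tmem95 has the shortest counted exons of the 10 genes and Spaca6, with 6897 bases, the longest, and Tmem95 moved above Spaca6 only on the scale per length. Between libraries the coefficient of variation of their CPM ran from 2.96% for Acrbp to 9.63% for Spaca1. The median was 7.67% over the 12285 genes with a mean of at least 100 counts, which were not matched to the members in counts. Spaca1, Tmem95 (9.24%) and Izumo1 (9.18%) lay above that median and the other members below it. Since mice of both diets are among the 6 round spermatid libraries, these spreads contain any effect of diet in the testis.

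Some of these counts share exons with neighbours, and the sources used here do not say whether reads were counted by strand. Acrbp shares 975 of its exonic bases (29.8%) with Gm44597 and Izumo1 654 (21.9%) with Rasip1, both on the same strand. Mean counts per round spermatid library were 108 for Gm44597 and 158 for Rasip1. Zpbp shares 223 exonic bases with Spata48 on the opposite strand, which had a mean of 1552 counts. Spaca6 shares 47 exonic bases with Mir125a, which had no count in these tables of germ cells. The gene models of the 2 germ cell tables differ slightly for Acr (1504 and 1567 exonic bases) and Spaca6 (6897 and 7067).

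The comparison of cauda sperm with round spermatids asks how much of this message remains once the cells have matured. All 10 genes were lower in sperm (edgeR's quasi-likelihood test, Benjamini-Hochberg adjusted p from 2.81e-10 for Spesp1 to 0.000212 for Tmem95). This stands against 52.3% of the 20791 genes tested that were lower and 25.1% that were higher. Of genes with a mean of at least 100 round spermatid counts, 61.2% were lower, with a median log2 fold change of -1.51. Over the 10 genes the median of the log2 ratio of mean TMM-scaled CPM in sperm to that in round spermatids was -5.16. With all sperm as 1 group, a fit added after the data had been seen, the median fitted log2 fold change of the 10 genes was -5.36 beside -0.91 over all genes tested.

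The summed level of the 10 genes fell from 1971 to 2146 CPM in round spermatids to between 16.6 and 49.4 CPM in sperm. Per library, 6 to 9 of the 10 genes had a count in sperm, and the 10 together had 61 to 144 counts. As a share of counts from nuclear genes alone the summed level was 68.4 to 206 CPM in sperm and 2019 to 2195 in round spermatids. The groups did not overlap on either scale. In bulk RNA, fewer cells that hold a message and less message per cell cannot be told apart. Round spermatid libraries were sequenced in paired and sperm libraries in single reads, so the cell stage and the library preparation cannot be told apart either.

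Zpbp2 showed the greatest difference of means, with 5591 to 8684 counts per round spermatid library and 18 counts in all sperm libraries, of which 14 were in 1 of them (l1000). On TMM-scaled CPM it had 166 ± 10.4 in round spermatids and 1.19 ± 2.28 in sperm (SD, n = 6 each), a 140-fold difference of means that became 629-fold without l1000. Spesp1 fell 84.4-fold, from 202 ± 13.03 to 2.40 ± 1.30 TMM-scaled CPM, and was counted in all 6 sperm libraries. Spaca1 fell 70.6-fold and Acr 55.5-fold, with 21 and 28 sperm counts in all. The library l1000 held 15 of the 21 Spaca1 counts, and without it, an alternative chosen after seeing the data for all 10 genes, that gene was 190-fold lower. These 4 genes, the most abundant per length in round spermatids, thus had between 18 and 29 counts each in the sperm libraries together.

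Acrv1 was 39.1-fold and Izumo1 32.6-fold lower in sperm. Of the 12 Izumo1 counts in sperm, 7 were in h1000, without which the difference was 84.7-fold, and the ratio of summed counts was 59.7. Acrbp and Zpbp kept more, being 10.2-fold and 9.82-fold lower, with fitted log2 fold changes of -3.56 (SE 0.27) and -3.47 (SE 0.40). Acrbp, at 19 to 39 counts, and Zpbp, at 4 to 34, were counted in each sperm library. Spaca6 changed least, 3.75-fold (log2 fold change -1.88, SE 0.29, adjusted p = 4.52e-05), from 39.7 ± 2.69 to 10.6 ± 5.04 TMM-scaled CPM (SD, n = 6 each). Relative to the median of all genes tested, Spaca6 was lower by 0.51 and Acrbp by 2.19 on the log2 scale.

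For Tmem95 the level in sperm rests on a single library. It had 279 to 437 counts per round spermatid library, 9 counts in h4000 and none in the other sperm libraries, so its means differed 5.17-fold while 9.64 TMM-scaled CPM in h4000 lay above the round spermatid maximum of 9.39. On library totals, where h4000 had 2.45 CPM against at least 13.1 in round spermatids, the groups did not overlap. The other 9 genes did not overlap between the stages under TMM scaling. The share of all genes that separated likewise was not computed for either scaling, so this separation is a description only. Zpbp2, Izumo1 and Tmem95 were at 0 in every library of one diet, and their fitted fold changes, which average the diets, depend on the prior count and are not given. With library totals the median of all genes moved from -1.37 to -2.94, and the ratios of the 10 genes moved with it to a median of -7.19.

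**Figure D2:**
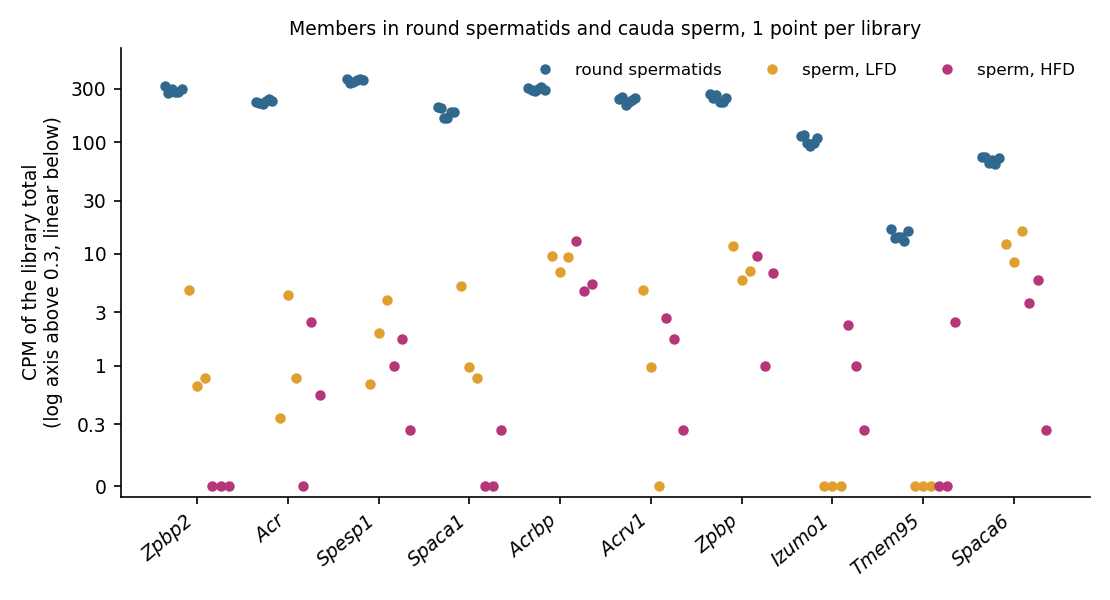
CPM of the library total for each gene in round spermatids and in sperm of both diets, 1 point per library (log axis above 0.3, linear below so that 0 can be drawn). All round spermatid points lie above all sperm points of the same gene on this scale, and sperm values reach 0 for 6 of the 10 genes.

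**Figure D3:**
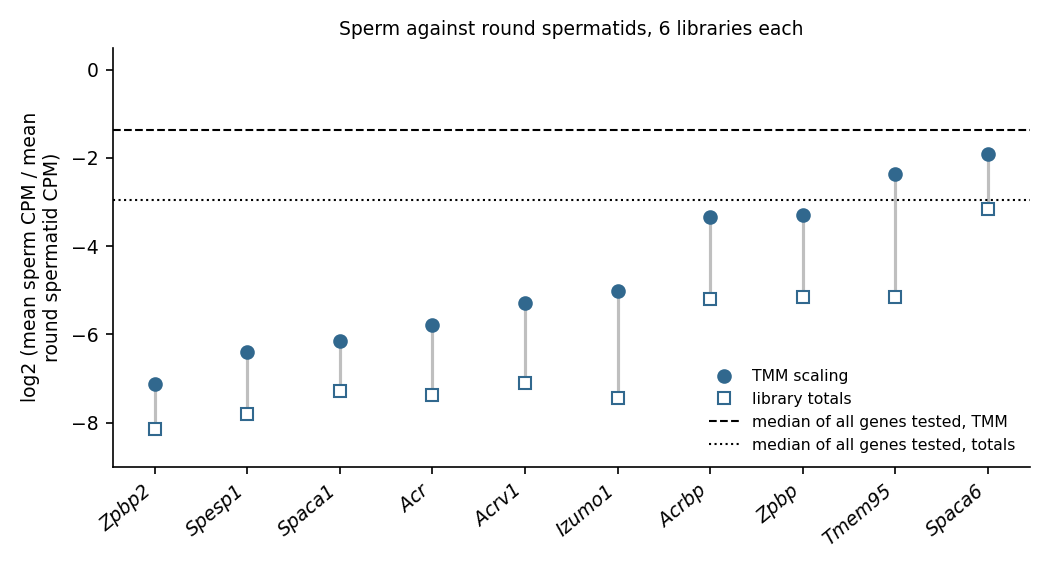
Log2 ratio of the mean of 6 sperm to the mean of 6 round spermatid libraries for each gene, with TMM scaling (filled) and library totals (open), and the median fitted log2 fold change of all genes tested under each scaling (dashed and dotted lines). Zpbp2 is the lowest with TMM scaling at -7.13 and Spaca6 the highest at -1.91.

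The order of the genes in sperm was not that of round spermatids. Acrbp led with a median of 2.48 FPKM (1.43 to 3.97), then Zpbp with 1.63 and Spaca6 with 1.02, while Zpbp2 was number 8 with 0.195 and Tmem95 had a median of 0. All neighbours in this order had overlapping ranges, so it is only a description. Among the 26903 genes with a sperm count, Acrbp was number 4133 by median FPKM and Izumo1 number 15688.

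Of the wider list of 43 acrosome and fertilization genes, 40 were lower in sperm, 1 was higher and 2 did not pass (Crisp2 and Cd46). On TMM-scaled ratios of summed counts, with the 3 genes that had no sperm count (Spaca3, Spaca4 and Spaca5) at their bound, the median log2 ratio of sperm to round spermatids was -4.71 for the 43 genes and -5.74 for the 10, and the difference between the lists was not tested. By fitted log2 fold change the 3 lowest genes were Spaca3, Spaca4 and Fam170b, an order that depends on the prior count where a gene had no sperm count. Spaca3, an acrosomal lysozyme-like protein, had 17267 counts over the round spermatid libraries and none in sperm, which makes it at least 266-fold lower against a floor of 3 counts over all sperm libraries. Spaca4, a membrane protein of the sperm head, went from 12395 counts to 0, at least 190.7-fold lower. Fam170b, a protein of the acrosome, went from 29024 counts to 1, a ratio of 1340 with an exact 95% counting interval of 240 to 52916. The bounds of Spaca3 and Spaca4 lie within the counting interval of Prss21, a serine protease of sperm with 3 sperm counts (53.0 to 752) that was named after its values were seen.

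Gopc, a Golgi protein needed to form the acrosome, was the one gene called higher (log2 fold change 0.58, SE 0.21, adjusted p = 0.0236). Its call depended on the scaling: with library totals it was lower in sperm by 1.00 on the log2 scale (adjusted p = 0.0042), and it did not pass without any one of h1000, h4000, l2000 and l4000 (0.22 to 0.47, adjusted p = 0.0681 to 0.317). Crisp2, which encodes a cysteine-rich protein of acrosome and tail, had 1025 to 3323 counts per sperm library and a log2 fold change of 0.50 (adjusted p = 0.153, and -1.24 with library totals).

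The question of the diet comparison was whether these messages differ between sperm of HFD-fed and LFD-fed males. No gene passed: of 8643 genes tested by edgeR, 0% were called at an adjusted p under 0.05, and 13% had an unadjusted p under 0.05. Only 3 of the 10 genes had enough counts to be tested, Acrbp, Zpbp and Spaca6, and 1 of the 3 had an unadjusted p under 0.05. Their median log2 fold change, HFD over LFD, was 1.30 beside -0.07 over all genes tested. On library totals both moved down, to -0.52 and -1.84, so the direction of these values turned. DESeq2 called 295 genes and limma-voom 0, and neither called any of the 3. A p above the threshold does not show that the diets gave equal levels.

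Acrbp had 39, 19 and 20 counts in the HFD libraries h1000, h3000 and h4000 and 28, 21 and 24 in the LFD libraries l1000, l2000 and l4000. The raw counts overlapped, and so did the shares of nuclear counts (21.4 to 82.8 CPM on HFD, 16.6 to 26.2 on LFD). On TMM-scaled CPM Acrbp did not overlap between the diets (6.65 to 25.5 on HFD, 3.68 to 6.42 on LFD). The share of all genes that separated by diet was not computed, here or for Spaca6 below, so such separation is a description only. The log2 fold change of Acrbp was 1.60 (SE 0.74) with an unadjusted p of 0.0472 and an adjusted p of 0.377 in edgeR's quasi-likelihood test, and -0.18 with library totals. Zpbp had 29, 4 and 25 counts on HFD and 34, 18 and 18 on LFD, which overlapped, and a log2 fold change of 1.30 (SE 0.90, adjusted p = 0.590), turning to -0.52 with library totals. For Spaca6 the HFD libraries held 11, 24 and 1 counts and the LFD libraries 36, 26 and 41. Every LFD library was above every HFD library in CPM (8.52 to 16.01 against 0.272 to 5.91), but as a share of nuclear counts they overlapped (24.1 to 33.7 against 1.30 to 26.98), and its log2 fold change was -0.28 (SE 0.88, adjusted p = 0.929). With library totals it was -1.91 (adjusted p = 0.117), beside -1.84 for the median of all genes. Without h4000, the library with 1 count, it was 0.22 (adjusted p = 0.935).

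The other 7 genes were too sparse to test with the filter on low counts, and with all genes kept edgeR tested all 10 and called none, with 2 at an unadjusted p under 0.05. Of all 26903 genes in that fit, 41 were called, and 1386 higher and 825 lower on HFD had an unadjusted p under 0.05. Spaca1 had 0, 0 and 1 counts on HFD and 15, 3 and 2 on LFD. Its ratio of summed counts, HFD over LFD and TMM-scaled, was 0.130 with an exact 95% counting interval of 0.0031 to 0.813, and the single HFD count carries no more weight than that. Zpbp2 had no HFD count and 14, 2 and 2 counts on LFD. Against a floor of 3 counts over the HFD group it was 2.31-fold higher on LFD (7.56-fold with library totals). The exact 95% counting interval of its TMM-scaled ratio, HFD over LFD, was 0 to 0.591. Most LFD counts of this pair came from l1000. Without l1000 the TMM-scaled intervals were 0.0079 to 3.34 for Spaca1 and 0 to 2.83 for Zpbp2, so both included a ratio of 1.

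Izumo1 and Tmem95 lay the other way. Izumo1 had 7, 4 and 1 counts on HFD and none on LFD, at least 10.4-fold higher on HFD against the floor (3.18-fold with library totals). Tmem95 had 0, 0 and 9 counts on HFD and none on LFD. Its ratio against the floor, 7.80 (2.38 with library totals), comes from h4000 alone, without which no sperm library had a count. The exact 95% counting interval of the Tmem95 ratio began at 5.13 (1.57 with library totals). Such counting intervals and floors leave out the spread between libraries, which the next genes show to be wide.

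Acrv1 had 8, 7 and 1 counts on HFD and 14, 3 and 0 on LFD. Acr had 0, 10 and 2 counts on HFD and 1, 13 and 2 on LFD, and Spesp1 had 3, 7 and 1 on HFD and 2, 6 and 10 on LFD. In all 3 genes the diets overlapped. For Acr the highest library of each diet held most of the counts. Within a diet, counts of a gene thus differed between libraries by more than 5-fold in Acr, Acrv1 and Spesp1 for at least one diet.

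**Figure D4:**
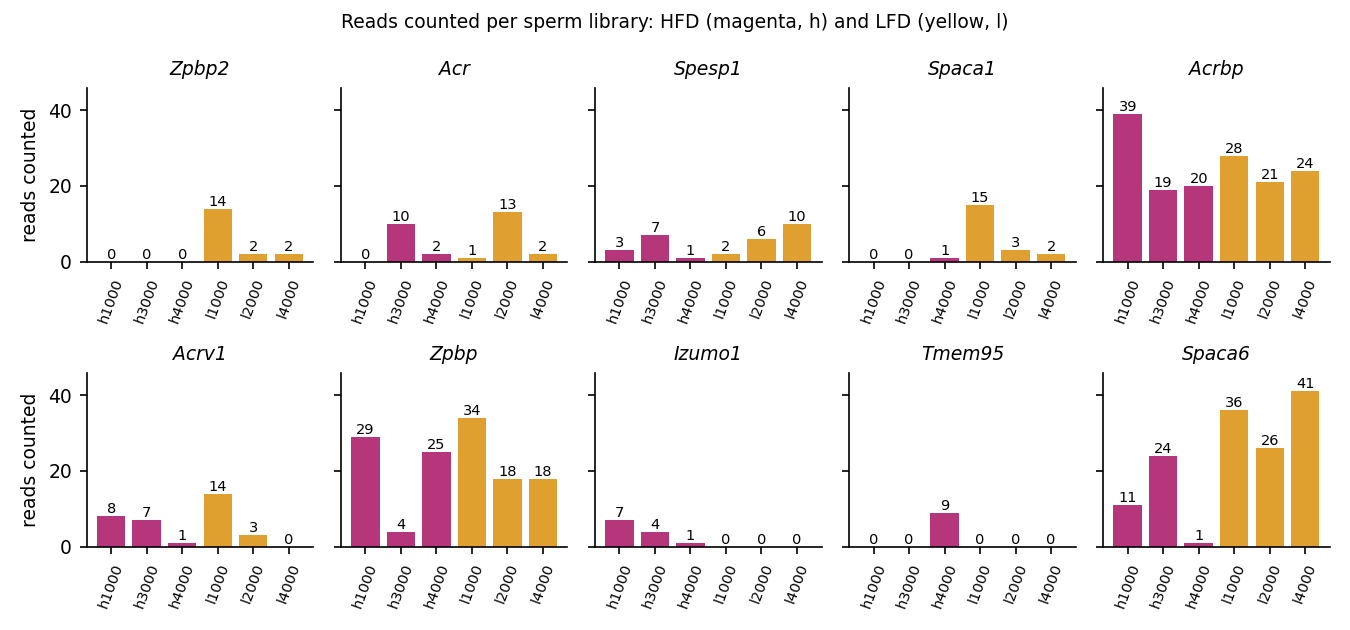
Reads counted for each gene in the 3 HFD libraries (h1000, h3000 and h4000) and the 3 LFD libraries (l1000, l2000 and l4000) of sperm, not scaled. Acrbp, Zpbp and Spaca6 are counted in all 6 libraries at up to 41 counts, Zpbp2 only on LFD, Izumo1 only on HFD, and Tmem95 in h4000 alone.

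Other contents of the sperm libraries moved with diet. The mtDNA-encoded share was 78.1 to 84.3% on HFD and 43.5 to 64.7% on LFD, and TMM factors were 0.44 to 0.71 on HFD and 1.52 to 2.62 on LFD. Of the 7 epididymal epithelium markers, 6 were counted on HFD, with Lcn8 at 0, and all 7 on LFD. They summed to 1696 to 3047 CPM on HFD and 3240 to 25447 CPM on LFD, and Crisp1 held most of it. Spermatid markers overlapped, at 3000 to 5470 CPM on HFD and 2684 to 5594 CPM on LFD. Of the 6 Sertoli markers 4 were counted in sperm, led by Sox9 with 38 counts on HFD and 117 on LFD, while Amh and Rhox5 were at 0. Of the 5 Leydig markers 2 were counted, Star with 36 counts on HFD and 30 on LFD and Cyp17a1 with 1 on LFD, while Insl3, Hsd3b1 and Cyp11a1 were at 0. The part of these contents in the diet values above was not tested.

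Of the wider list of 43 genes, 16 were tested by diet and none passed. Their median log2 fold change was 1.36, which turned to -0.38 with library totals, while relative to the median of all genes it was 1.43 and 1.45. Of the 16, 15 had a value above 0 with TMM scaling and 4 with library totals. The medians of all genes tested were -0.07 and -1.84, and their share above 0 was not computed. In edgeR's test 6 of the 16, all higher on HFD, had an unadjusted p under 0.05. Of all 8643 genes tested, 724 higher and 400 lower had such a p (13%). For the 3 members tested the distance from the median of all genes was 1.37 and 1.32 on the same scalings. With limma-voom it was 0.67 for the members and 1.51 for the wider list, and the difference between the lists was not tested.

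Morulae held little of these messages. Together the 10 genes took 19.2 to 65.6 CPM (median 23.8), of which Spaca6 made up most. Acr and Tmem95 had no count in any of the 6 libraries, where 0 allows up to 0.247 to 0.262 CPM per library. Spaca6 had a median of 2.93 FPKM (2.40 to 8.30), with 681 counts in MH6, 446 in MH7 and 206 to 242 in the other 4. Zpbp2 had 3 to 30 counts, Acrbp 5 to 25, Acrv1 1 to 19 and Spesp1 0 to 9. The highest Zpbp2 value, 2.58 CPM, was also in MH6. Izumo1 had 5 counts and Zpbp 2, each in a single library.

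The egg-side partners were measured in the same embryos. Cd9, an egg membrane protein needed for fusion, was the highest at 66.0 to 99.99 CPM (median 81.8). Zp3 and Zp2, which build the zona pellucida, had medians of 4.76 and 2.24 CPM, and Zp1 of 0.637 CPM. Cd81, a partner of Cd9, had a median of 0.927 CPM, and Astl, the protease that cleaves Zp2 after fertilization, of 0.128 CPM. Izumo1r, which encodes the egg receptor of Izumo1, had 8 counts in the 6 libraries, 7 of them in 1. At the morula stage, ligand and receptor of the fusion step were thus both at or near 0.

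In the offspring tissues Spaca6 and Acrbp stood apart from the rest. Spaca6 was counted in all 18 libraries, at 19.0 to 45.8 CPM in eWAT (median 31.5), 5.48 to 10.8 in liver (6.63) and 2.71 to 10.5 in gastrocnemius (6.98). The eWAT range lay above the other two. Acrbp had 5.92 to 18.7 CPM in eWAT (median 11.6), 2.95 to 6.38 in liver and 0 to 4.36 in gastrocnemius, where the most shallow library had none. Izumo1 was at 0 in all 18 libraries, and Acrv1, Spesp1, Zpbp2 and Tmem95 had at most 1 count in any of them. Zpbp was at 0 in liver and had 0 to 4 counts in eWAT.

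Acr and Spaca1 were counted in each eWAT library. Spaca1 had 2 to 6 counts there and none in liver or gastrocnemius. Acr had 21, 3, 2, 14, 7 and 3 counts in eWAT_17, eWAT_18, eWAT_22, eWAT_25, eWAT_26 and eWAT_27, or 0.740 to 5.98 CPM. Its highest library, eWAT_17, also held 247 of the spermatid marker counts against 0 to 6 in the others, and 1267 counts of the 6 Sertoli markers against 65 to 157. The next highest, eWAT_25 with 4.23 CPM of Acr, held 6 spermatid marker counts. Of the 6 Sertoli markers 4 were counted in eWAT, and Rhox5 with Cldn11 held 81 of the 1267 counts in eWAT_17. The Sertoli list also summed to 41.8 to 69.9 CPM in liver. In eWAT_17 all 7 spermatid markers had a count, and without it Acr ranged from 0.740 to 4.23 CPM. The part of these contents in the Acr counts was not tested.

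**Figure D5:**
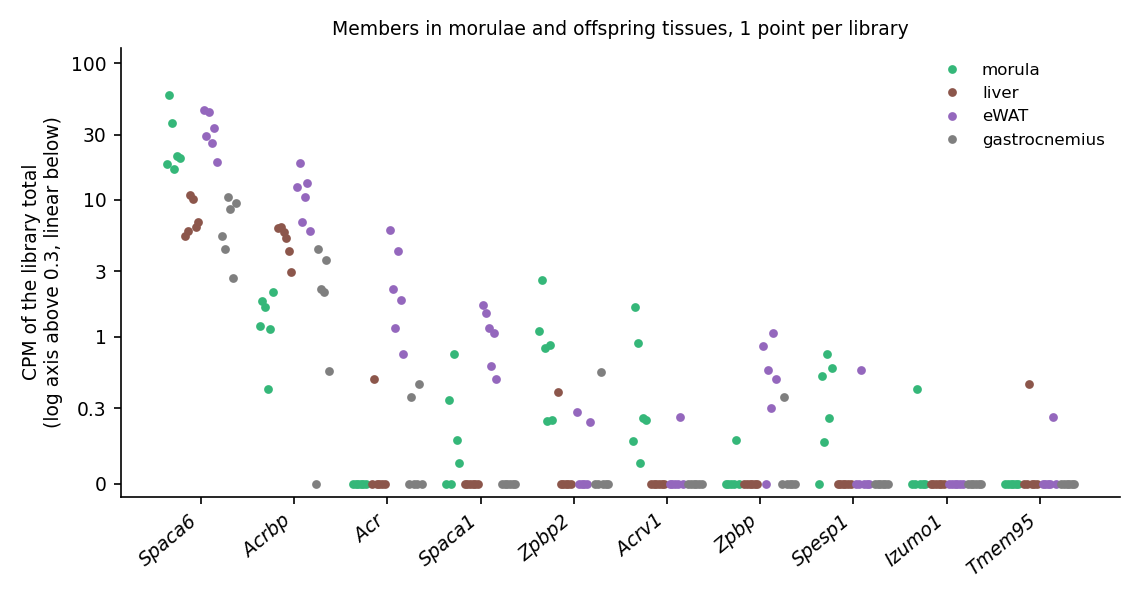
CPM of the library total for each gene in 6 libraries each of morula, liver, eWAT and gastrocnemius, 1 point per library (log axis above 0.3, linear below). Spaca6 is counted in all 24 libraries and Acrbp in all but 1, Acr and Spaca1 in all 6 of eWAT, and most other points lie at 0.

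Across all 36 libraries, each gene's log2 CPM was compared with the mean of the other 9 as a description. Tissue, depth and protocol go together across the libraries, and their parts in the likeness cannot be told apart. Pearson's r was 0.97 for Spesp1 and for Spaca1, 0.96 for Acrv1 and Izumo1, 0.95 for Zpbp2, 0.93 to 0.94 for Acr, Tmem95 and Zpbp and 0.90 for Acrbp. Spaca6, the gene counted in every library, was the least alike at 0.60. Among the 20319 genes with at least 10 counts in every round spermatid library, those most like the mean of the 10 were Trim69 (r = 0.99), Gm6588, Gm2396, 1700051A21Rik and Sun5 (each 0.99). Trim69 had a median of 168 CPM in round spermatids and 0.558 in sperm. Such a pattern was common: 2943 genes had an r above 0.95.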

How the data were processed

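The authors deposited featureCounts read counts per gene, made after BBDuk trimming and STAR alignment to GRCm38; versions and the strand setting are not given in the sources used here. Counts were used as deposited, with depths per library as given above. Symbols matched 51633 of 51912 identifiers of the round spermatid table and 54723 of 54838 of the sperm table, and sperm and round spermatids were compared over 51746 shared identifiers. CPM use all counts of a library, and FPKM the exonic length in the table.

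Genes were tested over all genes by the quasi-likelihood test of edgeR 4.0.16 (genes kept by filterByExpr, minimum count 10; scaling by TMM; two-sided, Benjamini-Hochberg threshold 0.05), with both diets as groups in the comparison of stages. DESeq2 1.42.0, limma-voom (limma 3.58.1), other scalings, no filter, other thresholds, a single sperm diet and leaving out each library were alternatives. The study's methods name NOISeq, which was not run. The scripts were tested on simulated data. No 2 libraries of a group agreed within sampling noise, the chi-square per degree of freedom being at least 3.50. The members and gene lists were chosen with earlier results of these data known. Named were all 10 members, the 3 largest called rises and falls of the wider list (1 rise passed), the egg-side genes in morulae and the 5 genes most like the members. Sertoli, Leydig and leukocyte lists were summed in sperm at 0.544 to 26.6, 0.343 to 7.35 and 23.4 to 45.5 CPM, and spermatocyte markers at 5.17 to 13.7 CPM. Each SE beside a fold change of edgeR was back-calculated, as the size of the fold change divided by the square root of the test's F statistic. Intervals and floors cover counting error only. Fits were run in R 4.3.3 and plots made in Python 3.11.15 (matplotlib 3.10.9).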

Additional observations from a re-analysis of the deposited data

Results flagged for a closer look

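Zpbp2 in morulae had 1 library far from the others. MH6 held 2.58 CPM (30 counts), while the other 5 lay between 0.247 and 1.10 CPM, so the gap to the next library was 0.634 of the whole range, just above Dixon's 95% limit for 6 samples. The same library had the highest Spaca6 level, 58.7 CPM, and the highest sum over the 10 genes, 65.6 CPM. Each gene with enough counts, and the sum over the 10 genes, was screened in every tissue but sperm, and no other group was marked. Chance marks about 1 in 20 groups by this measure, and the cause was not tested.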

How the results depend on the processing

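All 10 genes stayed lower in sperm than in round spermatids, past the threshold, under each of the 21 alternatives run for each gene, with the weakest adjusted p = 0.0285, for Tmem95. No member passed by diet under any of the 13 alternatives run for the 3 tested genes, where adjusted p ranged from 0.117 to 0.993, whereas 1 member had an unadjusted p under 0.05. The diet direction turned with library totals for Acrbp (-0.18, and -0.17 with no filter besides, added after the data were seen) and Zpbp (-0.52 and -0.50), and for Spaca6 without h4000 (0.22, against -0.79 to 0.22 over the libraries left out). Their construction shows why for the totals: the median of all genes moved to -1.84. In the wider list by diet, DESeq2 called 2 genes higher (Actl7a and Crisp2), and library totals called 1 lower (Gopc), with or without the filter. In edgeR's test 6 of its 16 genes had an unadjusted p under 0.05, beside 13% of all genes tested. Between the stages the 1 gene called higher, Gopc, was 0 with DESeq2 size factors, with library totals and with no filter, and 0 to 1 over the libraries left out. All genes called by diet went from 0 to 295 with DESeq2, 3357 with library totals and 41 with no filter, and the cause was not tested. In CPM without length the order of the genes changed in round spermatids and sperm. No paired analysis was possible because the sperm columns carry numbers that the sample titles do not use. The filter on low counts limits the diet comparison to 3 of the 10 genes. Without it all 10 were tested and 0 called, 2 having an unadjusted p under 0.05, at 9 to 33 counts per gene over the sperm libraries for the added 7. Beside these, 1386 higher and 825 lower of all 26903 genes had such a p.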
